A study of Mus musculus with 503 samples.

Results

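GLAST-lineage perivascular cells were compared between the intact and the injured spinal cord: EGFP+tdTomato+ single cells sorted from GLAST-CreERT2;R26R-tdTomato;Pdgfrb-eGFP mice (adult, on a C57BL/6J background by the study's methods). All groups carried these transgenes and had received tamoxifen, and the controls differed from the injured animals in injury only as far as the labels tell: cells were either uninjured or taken 3 days after a crush of the thoracic cord (SCI). The labels give female mice, and the methods name females for crush experiments but both sexes for sequencing. For the time after injury the labels give 3 days, whereas the series text gives 5; the labels were followed. EGFP marks any cell with *Pdgfrb* promoter activity (pericytes, vascular smooth muscle cells and fibroblasts), and tdTomato marks the tamoxifen-recombined subset of cells in which the promoter of the glutamate transporter gene *Slc1a3* (GLAST) was active. Of 503 cells in all, 280 were tdTomato+. The remaining rules were 200 or more genes detected, under 20% mitochondrial counts, and no *Pecam1* above both 1 on the ln(1 + counts per 10000) scale and *Pdgfrb*, and 259 cells passed. These were 65 and 72 uninjured cells on plates 209 and 213, and 88 and 34 injured cells on plates 211 and 215. The *Pecam1* rule took out 21 cells, all uninjured.

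No label names an animal, so each group was treated as 1 sample, without any test, p value or standard error. Uninjured and injured cells never shared a plate, so plate and injury cannot be told apart. Differences are given as injured minus uninjured log2(CPM + 1), where CPM is the count of a gene per 1e6 counts after adding up the cells of a group, and this scale understates changes near 1 CPM. A gene was called higher or lower, and is said below to have risen or fallen, where it differed by 1 or more on that scale in the sums and, the same way, in each of the 4 pairs of an injured with an uninjured plate. Both groups held similar totals, 38406035 uninjured and 31133429 injured counts, but plate 211 supplied 94.6% of the injured counts. The median cell held 14770 counts on plate 215 against 231445, 307796 and 328802 on plates 209, 213 and 211, so sums follow plate 211, and 3 counts correspond to 1.79 CPM on plate 215. All intervals and limits cover counting error only.

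Perivascular cells sit on the outer face of vessels. Pericytes share the basement membrane of capillaries with endothelial cells, regulate flow and barrier transport and are held in place by PDGF and Notch signals, whereas perivascular fibroblasts surround larger vessels and lay down collagen. After cord injury, PDGFRβ+ stromal cells leave the vessel wall, divide and deposit the fibrotic core of the scar, and they are known to release chemokines and matrix-remodelling enzymes as they do so.

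RNA of *Slc1a3* and *Pdgfrb*, the genes whose promoters were used for the sort, was found in both groups. The activity of the transgene promoters was not measured. *Slc1a3* stood at 111.3 and 284 CPM on the uninjured plates and 202 and 293 CPM on the injured plates, and it was not called (difference −0.03). *Pdgfrb* was at 1624 and 1416 CPM uninjured and 1216 and 1167 CPM injured, a difference of −0.31 that was not called either. The injured plates of *Pdgfrb* lay below both uninjured plates, and those of *Slc1a3* overlapped the uninjured range.

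The makeup of the sort differed between the groups. Each cell's summed counts were compared between fibroblast markers (*Lum*, *Dcn*, *Pdgfra*, *Col1a1* and *Pi16*) and pericyte markers (*Rgs5*, *Kcnj8*, *Abcc9*, *Atp13a5*, *Vtn* and *Higd1b*). By this measure 18.2% of uninjured cells (95% exact binomial interval 12.2 to 25.7%) but 95.1% of injured cells (89.6 to 98.2%) had more fibroblast marker counts. These were 10 of 65 and 15 of 72 cells on plates 209 and 213, and 84 of 88 and 32 of 34 cells on plates 211 and 215, so the plates of a group lay close together. Few cells lay near this division, 6 uninjured and 2 injured cells being within 2-fold of it. The uninjured tdTomato+ cells were therefore mostly cells with pericyte markers and the injured ones mostly cells with fibroblast markers. In sums over cells, fewer cells of a kind and less RNA per cell cannot be told apart, so the comparison is repeated further below within cells with more fibroblast marker counts. That class is a range of a marker score and not a cell type, and it cannot separate cells that gained fibroblast markers from cells that had them before injury. *Dcn* and *Col1a1* of this score themselves rose, *Col1a1* from 515 and 721 CPM uninjured to 3219 and 3239 CPM injured. A wider list of perivascular fibroblast genes had 2 rises and 4 falls among 22, close to the 8.51% higher and 22.4% lower among all tested genes. How far the shares rest on these abundant markers was not tested.

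RNA of endothelial genes moved with the groups. The summed level of 13 endothelial markers had a cell median of 11554 CPM in uninjured cells (lowest 6.52, highest 31526) and 231 CPM in injured cells (lowest 0, highest 23398). It was highest in uninjured cells with more pericyte marker counts, with a median of 12599 CPM, against 206 CPM in uninjured cells with more fibroblast marker counts. Of the 13 genes, 12 fell, with a median difference of −3.98, and *Cldn5*, a tight junction gene of endothelium, went from 1881 and 1397 CPM to 121.98 and 0 CPM. The part of this endothelial RNA in the falls described below was not tested, other than by repeating the counts of calls in the cells under 1000 CPM of that list (26 uninjured cells, and 81 and 33 injured cells on plates 211 and 215). Markers of neutrophils and erythrocytes were too low to be included, and those of astrocytes had cell medians of 21.7 CPM uninjured and 15.3 CPM injured. The microglia and macrophage list had cell medians of 14.7 and 30.2 CPM on the uninjured plates, 14.2 CPM on plate 211 and 137.5 CPM on the shallow plate 215. Its summed counts per plate came to 150.2 and 116.9 CPM uninjured and 18.3 and 88.8 CPM injured, and its part in the results was not tested.

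**Figure D1:**
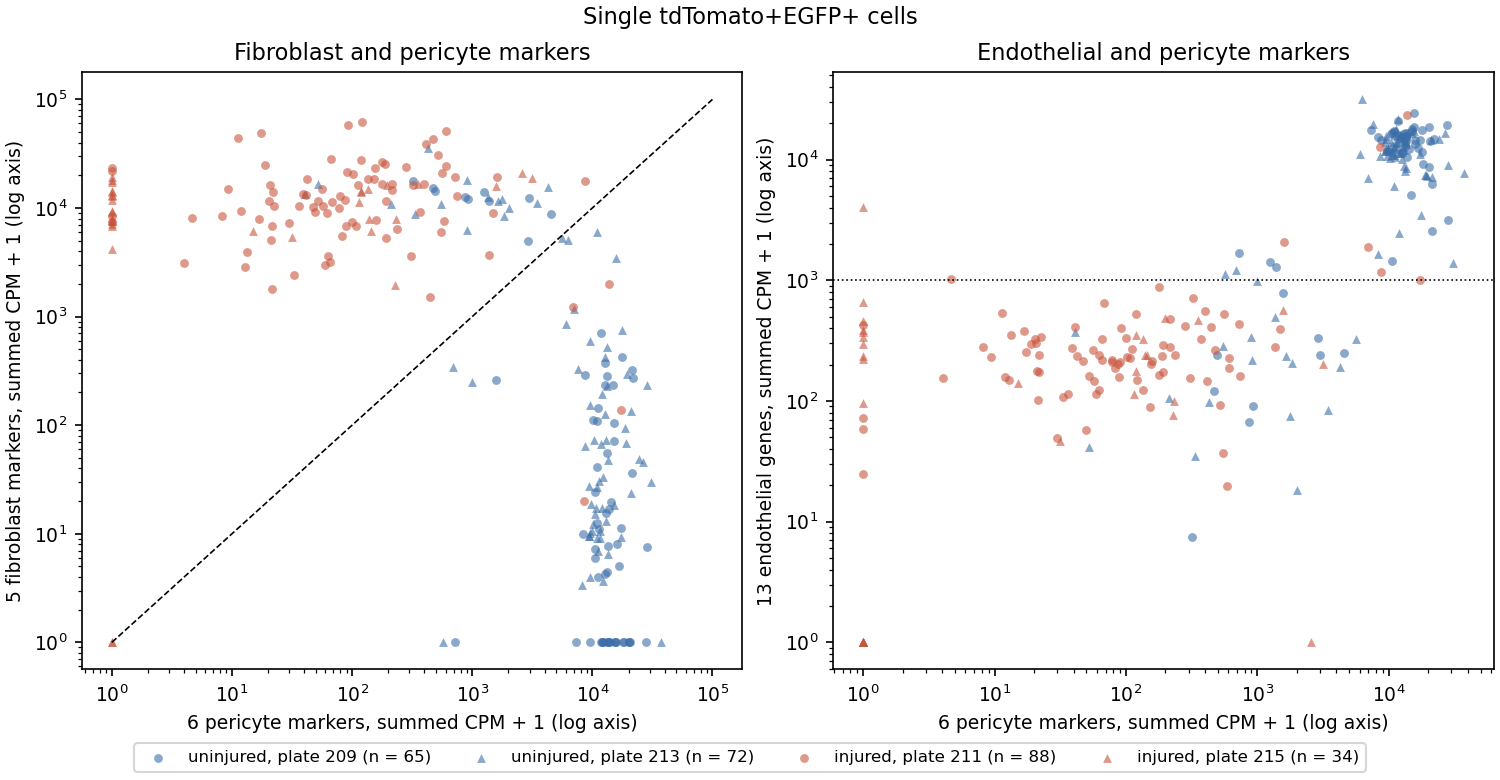
Summed marker levels of each GLAST-lineage cell in CPM + 1 on log axes, with fibroblast markers (left, vertical) or 13 endothelial genes (right, vertical) against pericyte markers; blue symbols are uninjured cells of plates 209 (circles, 65) and 213 (triangles, 72), red symbols injured cells of plates 211 (circles, 88) and 215 (triangles, 34). The dashed line marks equal marker levels, with 95.1% of injured and 18.2% of uninjured cells above it, and the dotted line marks 1000 CPM of endothelial genes.

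Across the transcriptome, more genes fell than rose. Of 10907 genes at 10 CPM or more in either group, 928 (8.51%) were called higher and 2439 (22.4%) lower in injured cells. The median of all tested genes was −0.57 (−0.60 to −0.34 over the 4 plate pairs), and 31.1% of genes were above 0, so the listed medians below are to be read against −0.57. Counts of list members called in all cells are likewise to be read against 8.51% higher and 22.4% lower. Trimmed mean of M values (TMM) scaling centred the genes at 0.04 and gave 1268 higher (11.7%) and 1703 lower calls (15.8% of 10806), with all 928 higher calls and 1703 of the 2439 lower calls (69.8%) among them. TMM moved the differences upward, in the plate pairs as well (medians −0.16 to −0.13). A higher call could therefore hardly be lost, and keeping all 928 is no check on them. Part of the lower calls were not made under that scaling. TMM was not run within the fibroblast-marker cells or the tdTomato− cells described further below.

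The 15 genes with the largest rises stood at 17.2 CPM or less on both uninjured plates. *Rrm2*, the inducible subunit of ribonucleotide reductase, was at 0.187 and 0.269 CPM on the uninjured plates and 369 and 256 CPM on the injured plates, a difference of 8.20 (7.66 to 8.28 over plate pairs). It had a count in 4.38% of uninjured and 70.5% of injured cells. After each cell was thinned to 20000 counts, 0.787% of uninjured and 72% of injured cells had a count. *Bcat1*, which transaminates branched-chain amino acids, was at 1.49 and 0.0448 CPM and rose to 385 and 492 CPM, a difference of 7.89. It was counted in 5.11% of uninjured and 83.6% of injured cells and had an injured cell median of 359.9 CPM. *Tfpi2*, a secreted serine protease inhibitor of the matrix, rose by 7.12, from 4.91 and 4.75 CPM to 809 and 786 CPM, and its 4 plate pairs lay within 7.06 and 7.14. For each of these 3 genes both injured plates stood far above both uninjured plates.

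*Inhba* encodes the activin A subunit, a ligand of the TGF-β family. It was at 3.3 and 0.358 CPM on the uninjured plates against 398 and 688 CPM on the injured plates, a difference of 7.33. Counts were found in 5.11% of uninjured cells and 73% of injured cells (median 128.8 CPM, highest 10399.6 CPM), and 1 injured cell held 24.8% of the injured counts. *Steap1*, a metalloreductase of the cell surface, had a count in 1 uninjured cell and in 81.1% of injured cells, at 118.99 and 212 CPM on the injured plates. *Pimreg*, a mitotic regulator, had no count in any uninjured cell and 117.6 and 115.7 CPM on the injured plates, which is at least 1505-fold higher when 3 counts are taken as the limit for the uninjured group.

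Among the largest falls were those of *Depp1*, *Atp13a5* and *Olfr558*. *Depp1*, a FOXO-induced gene of autophagy control, was at 445 and 425 CPM uninjured and 1.05 and 0 CPM injured, a difference of −7.77, with a count in 67.9% of uninjured and 3.28% of injured cells. *Atp13a5*, a P-type ATPase typical of brain pericytes, fell by 7.49, from 961 and 804 CPM to 3.97 and 1.79 CPM. *Olfr558*, an olfactory receptor gene expressed in vascular mural cells, stood at 151.6 and 149.8 CPM on the uninjured plates and had no count in any injured cell, which is at least 1562-fold lower. Within cells with more fibroblast marker counts these 3 genes were near 0 in both groups: the highest of their uninjured plate values there was 2.26 CPM.

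**Figure D2:**
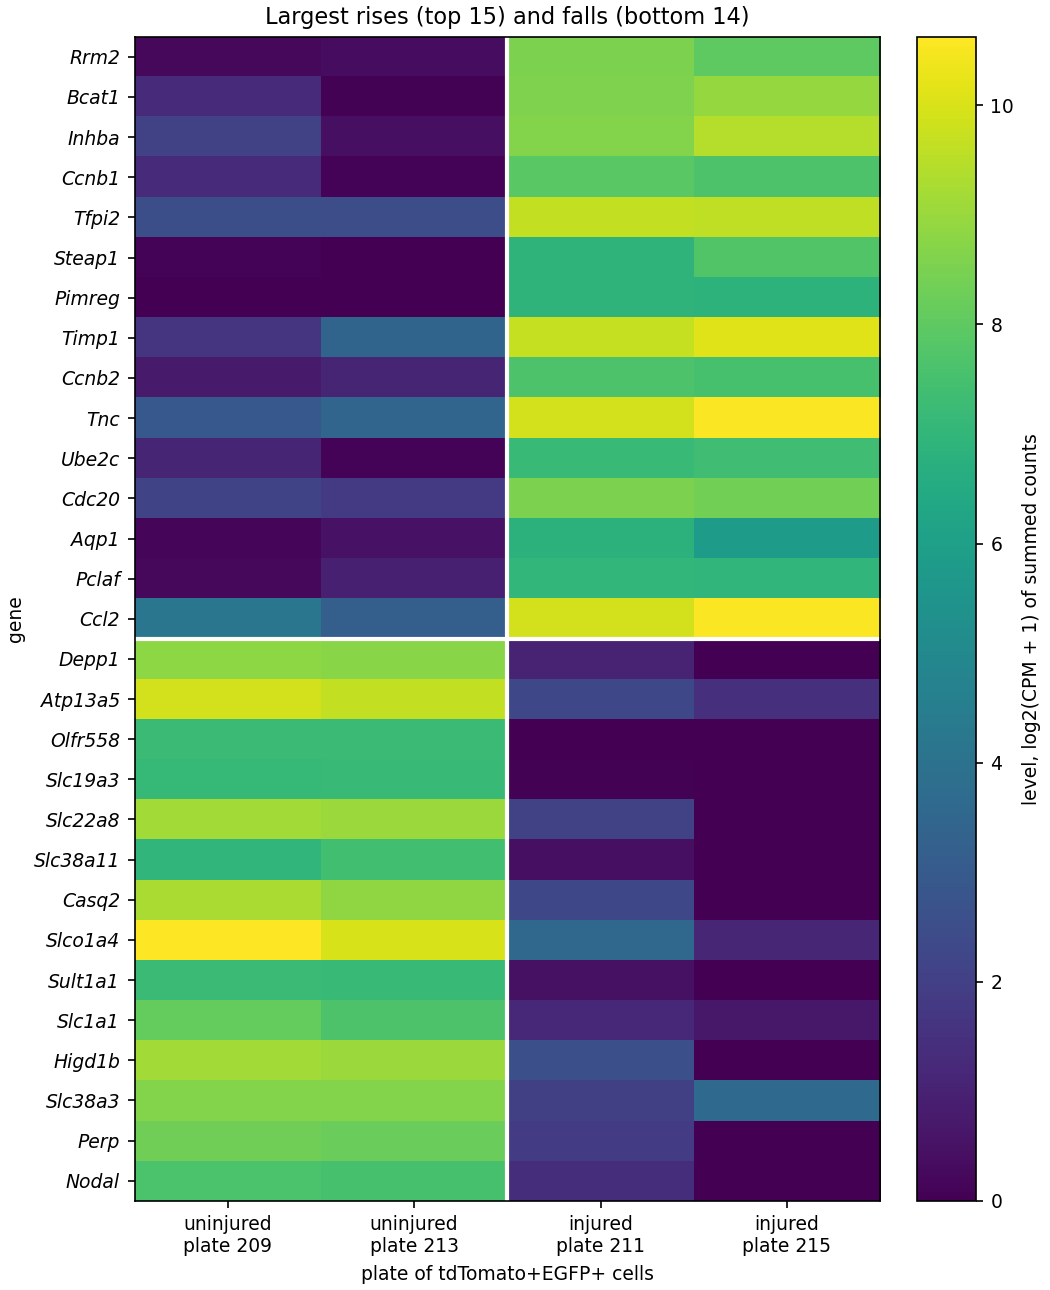
Heat map of log2(CPM + 1) for the 15 genes with the largest rise and 14 of the 15 with the largest fall in GLAST-lineage cells (rows) on the 4 plates (columns, 209 and 213 uninjured, 211 and 215 injured). Both injured plates were on the same side of both uninjured plates for every gene shown, a pattern that the rule for calls required.

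Promoter sequences are shown for the leading genes because the cell cycle genes among them rose together and share short promoter elements. RefSeq windows on GRCm38.p6 from 250 bases before to 50 after the start of transcription were matched by symbol for 8610 of the 10907 tested genes, with the first window used for 1788 genes that had several. The 160 bases below run 5′ to 3′ on the strand of the gene from 150 before to 10 after the start. They lie at chr12:24708104-24708263 (plus strand, *Rrm2*), chr13:100786477-100786636 (minus, *Ccnb1*, the cyclin of mitotic entry), chr9:70421545-70421704 (minus, *Ccnb2*, its paralog), chr6:145076148-145076307 (minus, *Bcat1*), chr13:16011701-16011860 (plus, *Inhba*), chr6:3988849-3989008 (minus, *Tfpi2*) and chr6:116650534-116650693 (plus, *Depp1*). Capitals mark matches, on either strand, to the motifs spelled out after the sequences.
Rrm2: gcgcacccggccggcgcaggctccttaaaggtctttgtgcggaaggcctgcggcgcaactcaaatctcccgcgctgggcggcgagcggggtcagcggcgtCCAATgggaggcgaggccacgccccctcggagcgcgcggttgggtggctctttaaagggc
Ccnb1: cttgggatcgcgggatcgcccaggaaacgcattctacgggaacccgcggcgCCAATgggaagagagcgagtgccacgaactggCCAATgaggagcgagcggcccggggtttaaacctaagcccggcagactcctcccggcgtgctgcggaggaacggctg
Ccnb2: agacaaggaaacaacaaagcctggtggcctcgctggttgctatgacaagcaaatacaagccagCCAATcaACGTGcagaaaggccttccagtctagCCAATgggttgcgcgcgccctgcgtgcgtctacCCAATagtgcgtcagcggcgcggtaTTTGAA
Bcat1: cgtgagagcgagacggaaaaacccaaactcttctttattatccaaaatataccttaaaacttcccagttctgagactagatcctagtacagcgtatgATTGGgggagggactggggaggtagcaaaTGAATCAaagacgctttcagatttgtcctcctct
Inhba: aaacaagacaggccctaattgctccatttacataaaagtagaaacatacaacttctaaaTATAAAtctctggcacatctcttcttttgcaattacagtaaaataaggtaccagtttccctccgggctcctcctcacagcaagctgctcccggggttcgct
Tfpi2: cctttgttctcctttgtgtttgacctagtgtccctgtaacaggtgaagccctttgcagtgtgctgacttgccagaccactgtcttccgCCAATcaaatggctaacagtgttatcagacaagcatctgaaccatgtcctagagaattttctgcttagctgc
Depp1: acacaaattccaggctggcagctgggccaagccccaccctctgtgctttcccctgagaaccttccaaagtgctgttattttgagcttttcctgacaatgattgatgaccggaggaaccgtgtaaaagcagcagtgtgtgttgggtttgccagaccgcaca

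The 7 motifs were searched on both strands of the 300 bases, and the 2 cell cycle lists differed in which they held. CHR, the cell cycle genes homology region (TTTGAA or TTCGAA), was found in 22 of 28 promoters of the mitosis list (78.6%), against 13.8% of all promoters searched, 23.2% of genes called higher and 12.8% of genes called lower, but in only 5 of 27 promoters of the DNA replication list (18.5%). CCAAT was in 75% of the mitosis list and 62.96% of the DNA replication list (17 of 27), against 38.7% of all promoters. The E2F letters (TTTCCCGC, TTTGGCGC or TTTCGCGC) were in 25.9% of the DNA replication list (7 of 27), 3.57% of the mitosis list and 3.80% of all. The *Rrm2*, *Ccnb1* and *Ccnb2* sequences above hold 1, 2 and 3 CCAAT matches, and that of *Depp1* holds none of the searched motifs. The AP-1 letters (TGANTCA) were in 6.77% of genes called higher against 4.46% of all, the hypoxia response letters ACGTG in 28.6% against 26.4%, TATAAA in 8.84% against 6.64%, and the ATF4 letters TGATGNAAT in 0.829% against 0.383%. Motifs that share letters were counted separately, and a match is a description of these windows only.

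Cell cycle genes rose together. All 34 genes of the mitosis list rose, with a median of 4.74, as did 27 of the 34 DNA replication genes (median 2.42), and none of either list fell. *Ccnb1* was at 1.43 and 0.0896 CPM uninjured and 237 and 203 CPM injured (difference 7.16), with a count in 2.19% of uninjured and 65.6% of injured cells. *Cdk1*, the kinase that cyclin B activates, went from 0.56 and 3.94 CPM to 176 and 224 CPM (5.67). *Ube2c*, the ubiquitin-conjugating enzyme of the anaphase-promoting complex, went from 1.12 and 0.0896 CPM to 140.99 and 166 CPM (6.56). For all 3, the injured plates lay closer to each other on the log2 scale than the uninjured plates, where few counts were found. *Mcm5*, a subunit of the replicative helicase, was at 9.58 and 38.1 CPM uninjured and 199.9 and 199 CPM injured (2.89), whereas *Pcna*, the sliding clamp, was at 83.2 and 80.1 against 141.6 and 163 CPM (0.80) and was not called. *E2f1*, a transcription factor of S phase entry, rose from 0.435 and 0.179 CPM to 21.6 and 34.6 CPM, and *Foxm1*, which drives mitotic genes, from 1.18 and 4.57 CPM to 19.9 and 28.6 CPM.

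Per cell, the summed mitosis list had a median of 66.5 CPM in uninjured and 1804 CPM in injured cells. No uninjured cell exceeded 1000 CPM, a threshold chosen after the values were seen: 0 of 65 and 0 of 72 cells, which together allow a share of up to 2.19%, with a highest cell of 787 CPM. Above it lay 56 of 88 injured cells on plate 211 and 16 of 34 on plate 215. In a cell of few counts 1 count can pass that level, and among cells of 20000 counts or more the numbers were 56 of 87 and 6 of 13 injured cells, against 0 of 63 and 0 of 64 uninjured cells. The share was 59.5% in injured cells with more fibroblast marker counts, and 3 of the 6 other injured cells were above it too. A list of cell cycle inhibitor and quiescence genes went the other way: of 16 tested, none rose and 11 fell, with a median of −1.80. This list also holds the D-type cyclin genes *Ccnd1*, *Ccnd2* and *Ccnd3*, so its tally is not of inhibitors alone. *Cdkn1a* (p21), a cyclin-dependent kinase inhibitor, was at 318 and 410.1 CPM on the uninjured plates and 28.1 and 18.5 CPM on the injured plates, a difference of −3.70. Its cell median was 326 CPM in uninjured and 0 CPM in injured cells. *Cdkn1b* (p27) fell from 65.2 and 91.8 CPM to 23.6 and 14.9 CPM, and *Cdkn1c* (p57) from 7.59 and 22.7 CPM to 1.73 and 0 CPM.

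**Figure D3:**
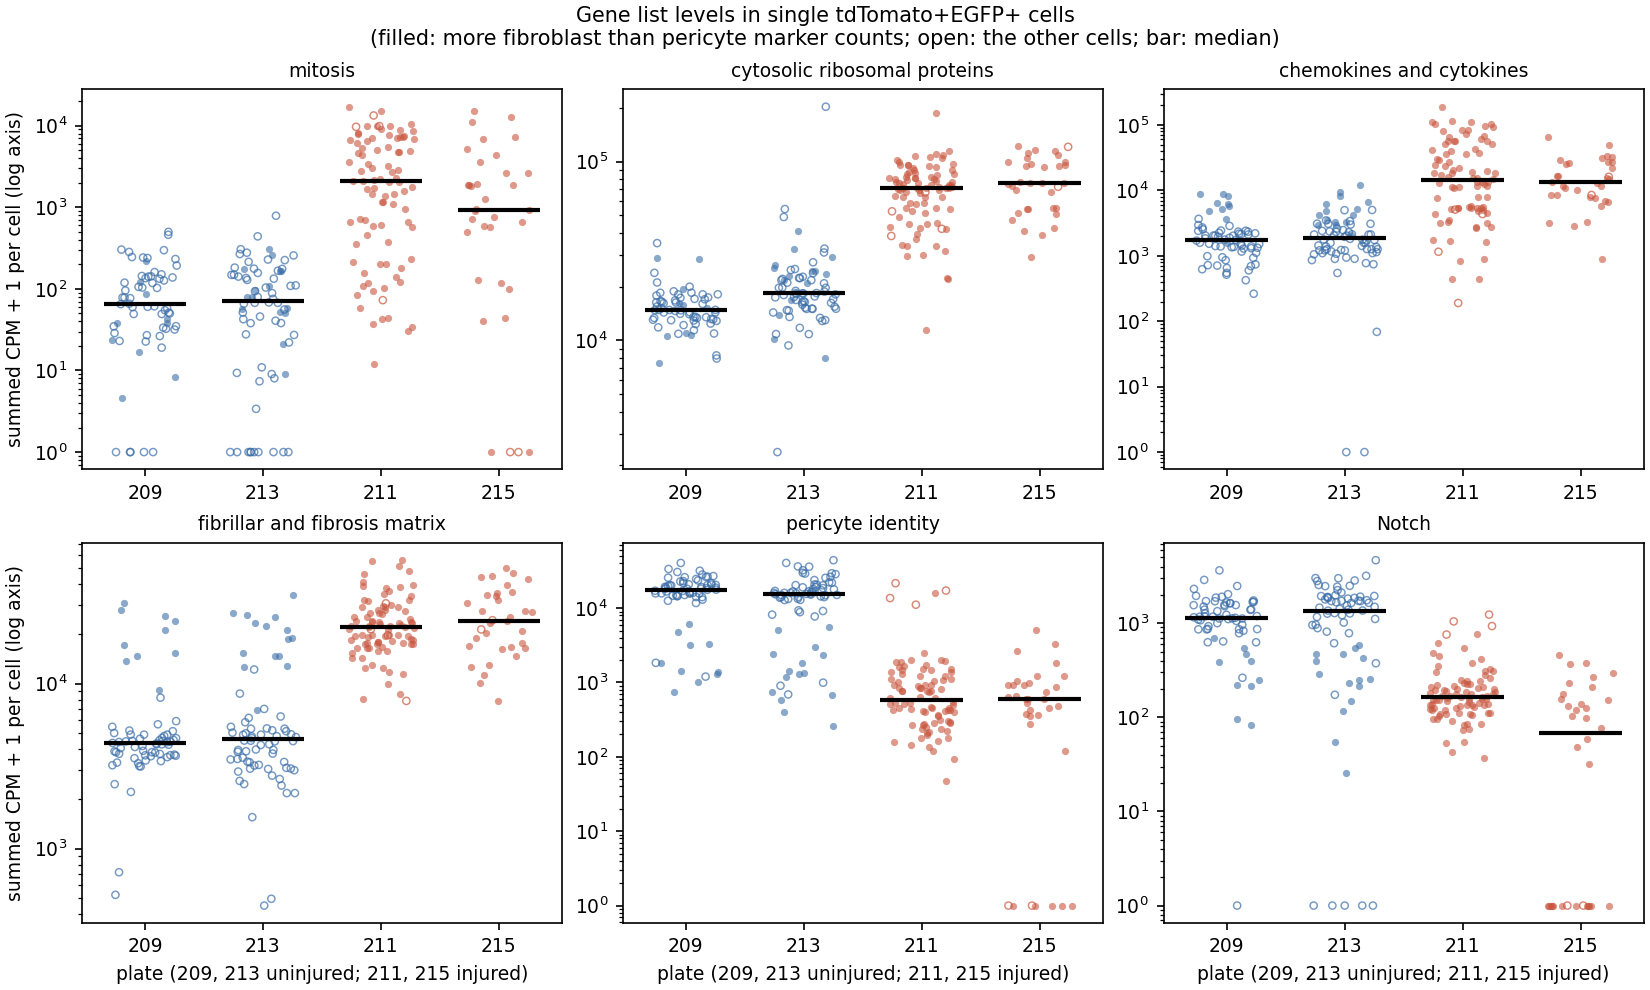
Summed level of 6 gene lists in each GLAST-lineage cell, in CPM + 1 on a log axis, by plate (209 and 213 uninjured, 211 and 215 injured); filled points are cells with more fibroblast than pericyte marker counts, open points the other cells, and bars medians. The mitosis list passed 1000 CPM only in injured cells, and pericyte identity and Notch levels were lower in injured cells.

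Genes for making ribosomes and protein rose with the cell cycle genes. Of 81 cytosolic ribosomal protein genes tested, 75 rose and none fell (median 1.98), and the summed cell median went from 16393 to 72494 CPM. Many ribosomal protein genes have near-identical pseudogenes, so counts of single members are uncertain. Among 25 ribosome biogenesis genes 17 rose and none fell (median 1.54). *Npm1*, a nucleolar chaperone, was at 226 and 259 CPM uninjured and 2164 and 1367 CPM injured, a difference of 3.11, and its cell median rose from 201 to 1449 CPM. *Ncl* (nucleolin) went from 349.8 and 414 CPM to 1149 and 1245 CPM (1.57), and *Myc*, which drives ribosome production, from 2.05 and 15.8 CPM to 51.5 and 76.3 CPM (2.29). The secretory pathway list had 7 rises and no fall among 32 genes (median 0.87), and *Hspa5*, the chaperone of the endoplasmic reticulum, went from 1069 and 1157 CPM to 2657 and 2359 CPM (1.24).

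Amino acid and nucleotide synthesis followed. Among 26 amino acid and one-carbon genes 12 rose and 1 fell (median 1.09), and 7 of 20 nucleotide synthesis genes rose with no fall (median 0.92). *Psat1* of serine synthesis was at 6.66 and 42.7 CPM uninjured and 233 CPM on both injured plates (3.03), and was counted in 14.6% of uninjured and 81.1% of injured cells. *Mthfd2*, the mitochondrial folate enzyme, rose from 14.1 and 31.9 CPM to 148.9 and 189 CPM (2.58). Glycolysis genes were divided, with 9 rises and 6 falls among 24 (median 0.04). *Hk2* (hexokinase 2) rose from 10.4 and 9.81 CPM to 80.6 and 154.4 CPM, and the lactate exporter gene *Slc16a3* from 16 and 3.94 CPM to 83.1 and 254 CPM. *Slc2a1*, the glucose transporter that is abundant in barrier endothelium, fell from 1546 and 1165 CPM to 104.7 and 121.6 CPM (−3.64). Genes of the respiratory chain had 2 rises and no fall among 31 (median 0.17), and the 8 mitochondrially encoded genes tested had no call.

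Matrix genes rose in part. Of 27 fibrillar and fibrosis matrix genes 14 rose and 3 fell (median 1.56). *Col3a1*, a fibrillar collagen, was at 625 and 862 CPM uninjured and 4764 and 4869 CPM injured, a difference of 2.64, and was counted in 66.4% of uninjured and 99.2% of injured cells. The glycoprotein *Spp1* (osteopontin) was at 405 and 335 CPM on the uninjured plates and 24552 and 6764 CPM on the injured plates, a difference of 6.01 (4.06 to 6.19 over pairs). Its cell median was 5.71 CPM uninjured and 8492 CPM injured, and its highest injured cell reached 175878 CPM, against 6915 CPM for the highest uninjured cell. *Tnc* (tenascin C), an adhesion-modulating glycoprotein, rose from 6.59 and 9.94 CPM to 959.9 and 1525 CPM (6.70), and was counted in 12.4% of uninjured and 86.1% of injured cells. *Fn1* (fibronectin, 1.25) and *Postn* (periostin, 1.87) were higher in the sums but missed the limit in a plate pair, at 0.90 and 0.12, and were not called. Basement membrane genes had no rise and 6 falls among 16 (median −0.79), among them *Lama2*, a laminin chain of the vessel wall, which fell from 334 and 373 CPM to 85.1 and 65.6 CPM (−2.07).

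Enzymes that fold, cross-link and cut matrix mostly rose where they were called. Of 24 collagen processing genes 10 rose and 1 fell (median 0.92). *Loxl2*, a lysyl oxidase that cross-links collagen, was at 6.66 and 32.9 CPM uninjured and 621 and 507 CPM injured (4.75), and *Lox* rose from 14.7 and 25.7 CPM to 289.9 and 270.1 CPM (3.71). *Serpinh1*, the collagen chaperone, went from 1232 and 1335 CPM to 5428 and 4327 CPM (2.05). Of 29 proteases and protease inhibitors 13 rose and none fell (median 1.19). *Timp1*, an inhibitor of metalloproteinases, was at 2.05 and 9.63 CPM uninjured and 835 and 1094 CPM injured (6.83), with a count in 6.57% of uninjured and 95.9% of injured cells. *Adam12*, a metalloprotease of activated stromal cells, rose from 0.746 and 1.57 CPM to 50.9 and 42.3 CPM (4.53). *Mmp10* (stromelysin 2) also rose, to 16.4 and 116.9 CPM on the injured plates, but 1 cell held 41.003% of its injured counts.

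*Has1* and *Has2*, which encode hyaluronan synthases, rose while several small proteoglycan genes fell. The list of hyaluronan and proteoglycan genes had 9 rises and 10 falls among 26 (median −0.62). *Has1* was at 0.124 and 0.717 CPM uninjured and 58.1 and 61.4 CPM injured (5.33), and *Has2* at 0 and 1.93 CPM against 90.2 and 81.1 CPM (5.42), counted in 5.11% and 3.65% of uninjured and in 59.02% and 58.2% of injured cells. *Cd44*, the hyaluronan receptor, rose from 0.249 and 16 CPM to 183 and 326 CPM (4.20). *Fmod* (fibromodulin) fell from 204 and 286 CPM to 13.7 and 12.5 CPM (−4.11) and *Ogn* (osteoglycin) from 218 and 222 CPM to 28.9 and 7.75 CPM (−2.94), although both belong to the small leucine-rich proteoglycans of fibroblasts, as does *Dcn* (decorin), which rose from 877 and 1327 CPM to 8625 and 4081 CPM (2.88).

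Among the signalling lists, chemokines and cytokines had the highest median. Of 19 tested 13 rose and 5 fell (median 2.96), and the summed cell median went from 1776 to 13576 CPM. This list includes *Spp1*, which supplied 14.7% of its uninjured and 81.6% of its injured counts; without it the cell median went from 1699 to 4134 CPM. *Ccl2*, the ligand that recruits CCR2+ monocytes, was at 17.2 and 8.24 CPM uninjured and 966 and 1513 CPM injured (6.26), with a count in 18.98% of uninjured and 86.9% of injured cells. *Ccl7*, its neighbour in function, was at 0.622 and 26.4 CPM against 997 and 885 CPM (5.90), and *Cxcl1*, which draws in neutrophils, at 32.9 and 90.6 CPM against 522 and 550.3 CPM (2.96). *Il11*, an interleukin of the gp130 family, was at 0.995 and 0.493 CPM uninjured and 112.3 and 137.7 CPM injured (6.07), and was counted in 5.11% of uninjured and 57.4% of injured cells. *Il33*, a nuclear alarmin, rose from 246 and 241 CPM to 1554 and 2126 CPM (2.70). *Cxcl12*, the CXCR4 ligand of vessel-associated stroma, fell from 1100.3 and 1020.2 CPM to 311 and 182 CPM (−1.79), and its cell median went from 927 to 62.7 CPM. Some inflammatory genes rested on 1 cell: single cells held 69.97% of the injured counts of *Cxcl5*, 59.8% of *Cxcl2*, 48.8% of *Cxcl10* and 57.1% of *Lcn2*.

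Ligands and readouts of the TGF-β family did not move one way. The list of TGF-β, activin and BMP genes had 7 rises and 4 falls among 26, with a median of −0.12 that became 0.42 under TMM scaling. Besides *Inhba*, *Fstl1*, a secreted follistatin-like protein, rose from 376 and 431 CPM to 2857 and 2197 CPM (2.79). The next 3 genes are not in that list. *Ccn4* (WISP1), a matricellular protein, rose from 12.7 and 5.96 CPM to 196 and 286 CPM (4.37), and *Ccn2* (CTGF) from 231 and 157.7 CPM to 1002 and 1321 CPM (2.43). *Nodal*, another ligand of the family, fell from 194 and 183 CPM to 1.6 and 0 CPM (−6.23) and was counted in 66.4% of uninjured and 1.64% of injured cells. *Id1*, a direct BMP target, fell from 333 and 305 CPM to 29.7 and 38.8 CPM (−3.35), whereas its relative *Id3* was at 599.6 and 494 CPM against 867 and 1048 CPM (0.70) and was not called.

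The Wnt, growth factor and IGF lists had medians above the −0.57 of all tested genes, and the axon guidance list one below it. No Wnt gene rose and 6 of 20 fell (median −0.28, which became 0.27 under TMM scaling). *Axin2*, a feedback target of Wnt signalling, fell from 54.6 and 57.2 CPM to 5.3 and 5.96 CPM (−3.17), with a cell median of 16.7 CPM uninjured and 0 CPM injured. Growth factor genes had 3 rises and 8 falls among 21 (median −0.07, and 0.49 under TMM scaling), with *Vegfa*, the endothelial growth factor, rising from 3.48 and 15.2 CPM to 37.2 and 88.8 CPM (1.86). Of 16 IGF genes 2 rose and 4 fell (median 0.34), which became 3 and 1 under TMM scaling (median 0.91), and *Igf2* fell from 284 and 287 CPM to 24.6 and 135.3 CPM (−3.18). Axon guidance genes had 2 rises and 10 falls among 22 (median −1.39).

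Retinoid, prostaglandin and iron genes each had marked rises of single enzymes. The retinoid list had 3 rises and 4 falls among 13 (median −0.55, which became 0.01 under TMM scaling). *Aldh1a2*, which makes retinoic acid, was at 26.3 and 7.48 CPM uninjured and 674 and 615 CPM injured (5.36), and *Aldh1a3* at 11.2 and 15.1 CPM against 299 and 270.1 CPM (4.36), whereas *Aldh1a1* fell from 266 and 225 CPM to 66.5 and 93.6 CPM (−1.82). Of 11 prostaglandin genes 4 rose and 1 fell (median 1.45). *Ptgs2* (COX-2) rose from 9.39 and 14.6 CPM to 278 and 482 CPM (4.43), with a count in 10.2% of uninjured and 69.7% of injured cells. Of 16 iron and heme genes 6 rose and 2 fell (median 0.41). *Hmox1* (heme oxygenase 1) rose from 15.9 and 25 CPM to 214 and 351 CPM (3.32), with 36.4% of its injured counts in 1 cell, and the ferritin heavy chain gene *Fth1* from 737 and 844 CPM to 4159 and 2819.6 CPM (2.35).

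Integrin, adhesion and actin genes had 18 rises and 5 falls among 41 (median 0.92). *Itga5*, the fibronectin receptor subunit, rose from 35 and 77.8 CPM to 479 and 676 CPM (3.01), and its partner *Itgb1* stood at 301 and 326 against 321 and 339 CPM (0.03). Contractile genes of vascular smooth muscle were divided, with 2 rises and 8 falls among 14 (median −1.94). *Myh11*, the smooth muscle myosin heavy chain, fell from 159.6 and 174 CPM to 3.26 and 2.38 CPM (−5.32). *Acta2* (α-smooth muscle actin) rose from 282 and 278 CPM to 966 and 1168 CPM (1.80) and was counted in 25.5% of uninjured and 68.9% of injured cells. An uninjured cell of 4170 counts stood at 290647 CPM and held 11.3% of the uninjured *Acta2* counts. The mean of the cells, in which each cell weighs the same, gave a difference of −1.25, while the cell median was 0 CPM uninjured and 49.7 CPM injured. *Tubb3*, a tubulin often used as a neuronal marker, rose from 7.59 and 4.79 CPM to 375 and 655 CPM (5.81). It carried the rise of the neuron marker list, whose cell median went from 12.7 to 205 CPM, whereas *Stmn2* of the same list fell by 4.32 on the log2 scale.

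Pericyte genes fell together. Of 18 pericyte identity genes none rose and 16 fell, with a median of −3.83, and their summed cell median went from 16018 to 594 CPM. *Rgs5*, a regulator of G-protein signalling, was at 3739.9 and 2951 CPM uninjured and 160.2 and 0.596 CPM injured (−4.43), and was counted in 95.6% of uninjured and 12.3% of injured cells. *Kcnj8*, a pore subunit of ATP-sensitive potassium channels, fell from 1741 and 1320.4 CPM to 43.1 and 23.3 CPM (−5.12), and *Abcc9*, its regulatory subunit, from 791 and 621 CPM to 24.6 and 4.17 CPM (−4.82). *Higd1b*, a mitochondrial protein gene typical of pericytes, fell from 561 and 528 CPM to 5.02 and 0 CPM (−6.56). *Vtn* (vitronectin) was counted in every uninjured cell, at a median of 3631 CPM, and in 76.2% of injured cells, at a median of 60.7 CPM. In *Rgs5*, *Kcnj8*, *Higd1b* and *Vtn* the highest injured cell lay within the range of uninjured cells.

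Barrier transport and Notch genes fell alongside. Of 16 barrier transporter genes none rose and 10 fell (median −2.79). *Slc22a8*, an organic anion transporter, fell from 565 and 525 CPM to 3.12 and 0 CPM (−7.10), and *Slco1a4*, which is shared with barrier endothelium, from 1579.9 and 1017 CPM to 10.9 and 1.19 CPM (−6.78). Of 15 Notch genes none rose and 12 fell (median −3.23). *Notch3*, the receptor of mural cells, was at 216 and 318 CPM uninjured and 15.3 and 10.7 CPM injured (−4.10), and its target *Heyl* at 226 and 196 against 17.2 and 0 CPM (−3.60). *Pdgfb*, the endothelial ligand that retains pericytes, fell from 73.7 and 99.4 CPM to 3.67 and 0.596 CPM (−4.32). Receptors and effectors for vasoactive signals had 2 rises and 13 falls among 21 (median −1.97), with the endothelin receptor gene *Ednra* at 209 and 152.98 CPM against 69.6 and 66.8 CPM (−1.33). The endothelial list above fell over the same cells (median −3.98).

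Interferon and MHC class I genes had no rise and 13 falls among 30 (median −1.57), which became 2 rises and 9 falls under TMM scaling. Within cells with more fibroblast marker counts, 1 rose and 6 fell among 29 (median −1.01). Such cells were already lower without injury, at a summed cell median of 5383 CPM against 9048 CPM in the other uninjured cells. Over all cells *H2-K1*, a classical class I gene, was at 1093 and 1006 CPM uninjured and 112.6 and 102.6 CPM injured (−3.21). Its cell median went from 966 to 52.4 CPM. *H2-D1* fell from 1610.2 and 1348 CPM to 296 and 208 CPM (−2.32), and the class I genes share sequence, so their counts are uncertain relative to each other. *B2m*, the common light chain, was at 792 and 728 against 350.5 and 404 CPM (−1.09) and was not called. Cytokine receptor genes had 4 rises and 3 falls among 25 (median 0.10), and complement genes had no rise and 3 falls among 10 (median −0.23, which became 0.35 under TMM scaling). Cholesterol synthesis genes had no rise and 5 falls among 23 (median −0.44, and 0.11 under TMM scaling). These falls were near the 22.4% called lower among all tested genes.

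Transcription factor genes of the stroma had 8 rises and 9 falls among 42 (median −0.50, which became 0.05 under TMM scaling). Their falls were near the 22.4% called lower among all tested genes. *Runx1*, a factor of stromal activation, rose from 2.24 and 9.99 CPM to 35.9 and 31.6 CPM (2.24), and *Runx2* from 3.61 and 4.93 CPM to 21.1 and 16.7 CPM (2.03). *Foxf2*, a forkhead factor of brain pericytes, fell from 79.6 and 91.9 CPM to 17.2 and 20.9 CPM (−2.26). Of 22 immediate early genes 2 rose and 7 fell (median −1.22). *Atf3*, which is induced by cell stress and by tissue dissociation, fell from 144.9 and 236 CPM to 16.3 and 5.96 CPM (−3.58) and *Jun* from 782 and 1005 CPM to 219 and 223 CPM (−2.05), whereas *Fos*, at 1991 and 2265 against 1395 and 1271 CPM (−0.63), was not called. *Fosl1*, a FOS relative, rose from 2.24 and 4.93 CPM to 11.3 and 22.7 CPM (1.43).

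**Figure D4:**
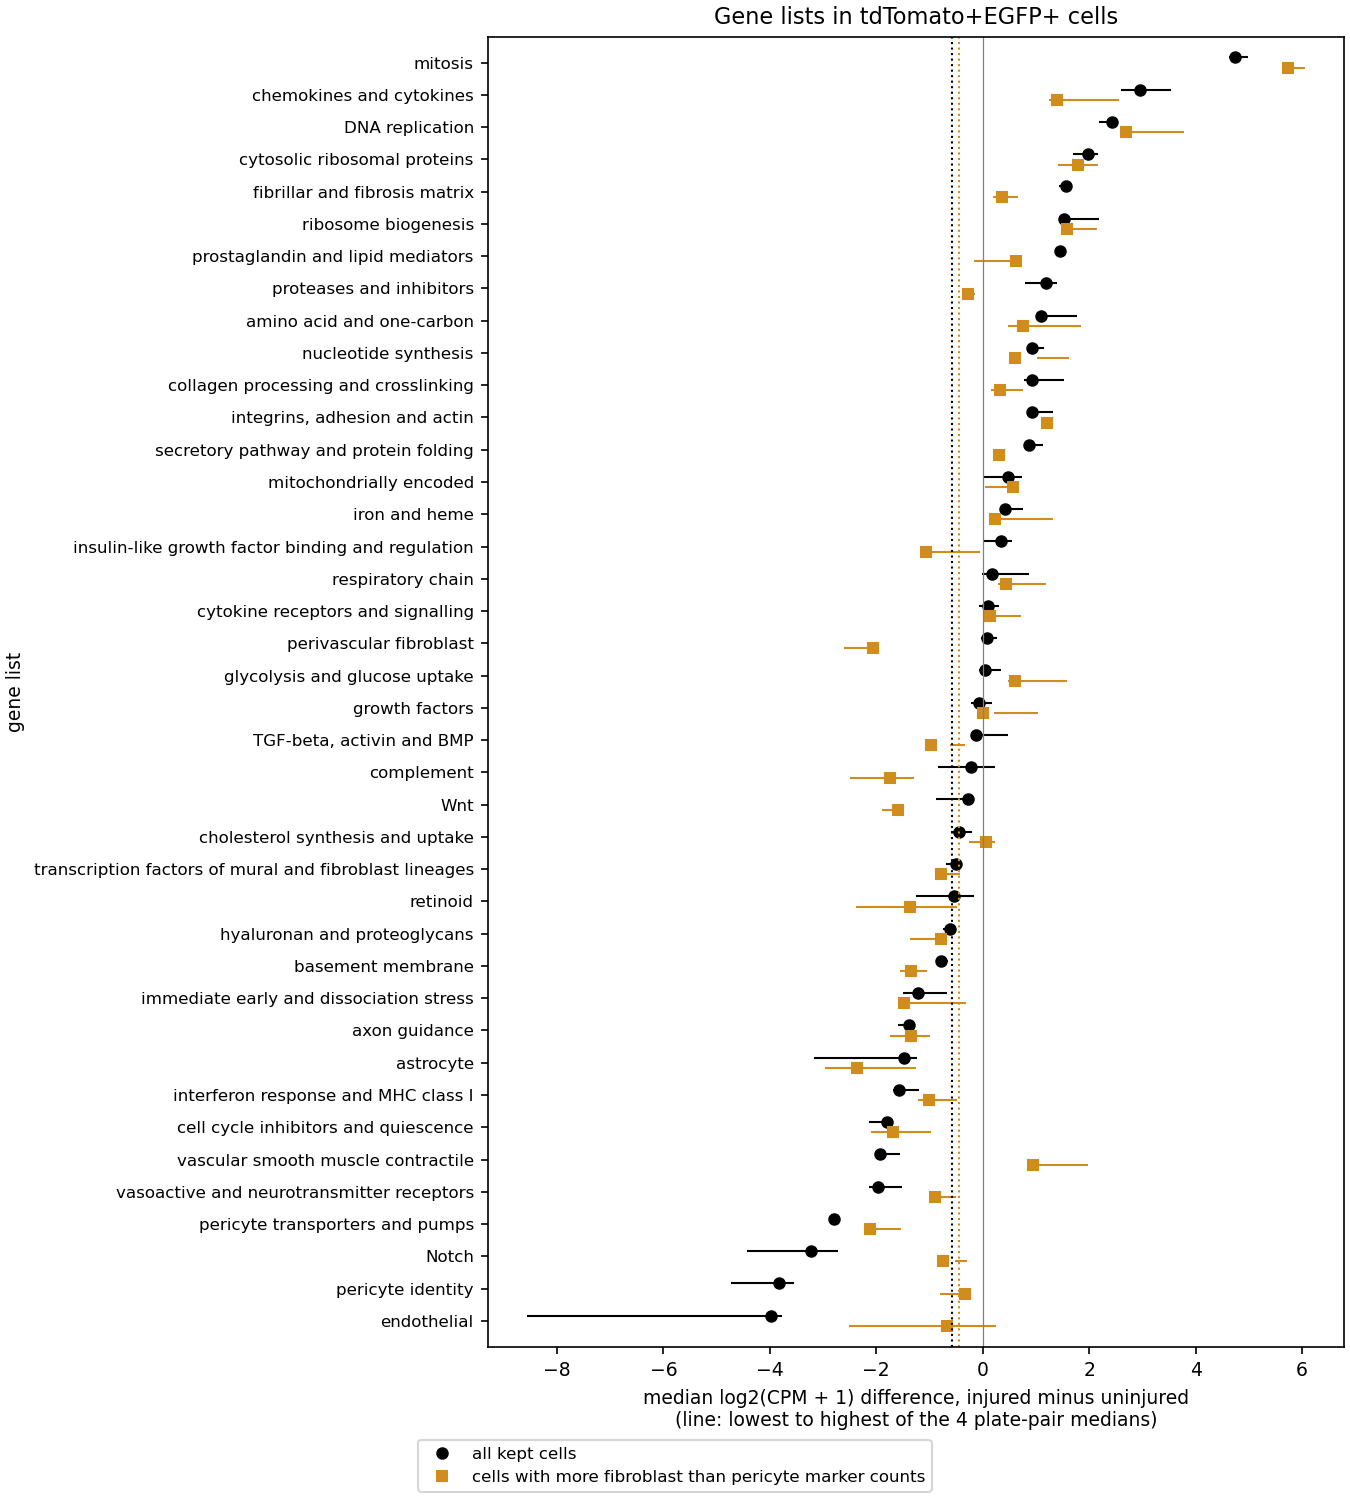
Median injured minus uninjured log2(CPM + 1) difference of each gene list with 5 or more tested genes, for all kept GLAST-lineage cells (black) and for cells with more fibroblast than pericyte marker counts (orange), with lines from the lowest to the highest plate pair and dotted lines at the medians of all tested genes (−0.57 and −0.45). A point can lie outside its line because pairs are computed per plate. The mitosis list lies highest in both. The pericyte identity list lies at −3.83 in all cells (18 genes tested) and at −0.33 in the second (10 genes tested). The second leaves out the pericyte markers used to form the class, which was itself chosen by low counts of them relative to fibroblast markers. Its summed pericyte identity level was 2059 CPM uninjured and 844 CPM injured.

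Restricting the comparison to cells with more fibroblast than pericyte marker counts left 25 uninjured cells, and 84 and 32 injured cells on the 2 plates, with 8188432 and 29994565 counts. Their endothelial list was low in both groups, at cell medians of 206 and 226 CPM. Of 10557 genes tested 1038 rose (9.83%) and 1453 fell (13.8%), around a median of −0.45, and the 11 markers used to form the class were left out of calls. Of the 928 genes called higher in all cells, 628 (67.7%, or 60.5% of the 1038) were also called higher in these cells and 0 were called lower. Of the 2439 called lower in all cells, 1838 could be tested in the class, and 840 (45.7% of those tested, 34.4% of the 2439 and 57.8% of the 1453) were also called lower and 21 were called higher. These comparisons share cells, and a gene near 0 in fibroblast-marker cells could not be called lower in them.

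Cell cycle and growth lists rose in this class as well. All 34 mitosis genes rose (median 5.74), with 22 of 34 DNA replication genes (2.69), 72 of 81 ribosomal protein genes (1.78) and 14 of 26 ribosome biogenesis genes (1.58), and none of the 4 lists had a fall. *Ccnd1*, cyclin D1, was at 0 CPM on both uninjured plates and 67.5 and 128.8 CPM on the injured plates in this class, whereas in all cells it was at 91.9 and 101.8 CPM against 67.5 and 128.8 CPM and was not called. *Acta2* was at 0 and 0.566 CPM uninjured and 868 and 1168 CPM injured, and 3 of the 25 uninjured cells had a count of it, with a highest cell of 2.68 CPM. *Tagln* (SM22α), an actin-binding protein of contractile cells, went from 0.693 and 15.5 CPM to 264 and 501 CPM (4.63), and *Tpm1* (tropomyosin 1) from 92.6 and 247 CPM to 1456 and 1634 CPM (2.92). Of 8 contractile genes tested in this class, 4 rose and none fell (median 0.94). The direction of that list's median was opposite to that in all cells, where 14 were tested, so the 2 medians are not over the same genes. Integrin and actin genes had 16 rises and 1 fall among 38 (1.20), and *Tes* (testin), a focal adhesion protein, went from 1.04 and 0.189 CPM to 166 and 152.7 CPM (6.80).

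Matrix genes separated within the class. Fibrillar matrix genes had 5 rises and 3 falls among 25 (median 0.36), and the summed cell median of this list was 18905 CPM uninjured and 22414 CPM injured. *Col1a1* was at 2857 and 2890.2 CPM uninjured and 3345 and 3240.2 CPM injured, and *Col3a1* at 3173 and 3139 against 4939.9 and 4869.6 CPM (0.65), which was not called. Because *Col1a1* helped to form the class, its levels there are partly set by the choice of cells. It was left out of the calls but not of the summed list. *Spp1* went from 1952 and 1030.5 CPM to 25535 and 6763 CPM (4.17), *Tnc* from 28.1 and 40.4 CPM to 968 and 1526 CPM (4.76) and *Timp1* from 8.32 and 39.2 CPM to 862 and 1094 CPM (4.90). *Ccn4* had no count in the 25 uninjured cells and was at 203 and 286 CPM in injured cells. *Col15a1*, a basement membrane zone collagen, fell from 862 and 907 CPM to 130.4 and 226 CPM (−2.71), *Lama1* from 1020.1 and 629.6 CPM to 188 and 274 CPM (−1.99), and 7 of 15 basement membrane genes fell with 1 rise (median −1.36).

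Most tested genes that mark resting perivascular fibroblasts fell within the class. Of 19 such genes tested, none rose and 13 fell (median −2.06). Over all cells the list had 2 rises and 4 falls among 22 (median 0.08), but not over the same genes. *Lum*, *Dcn*, *Pdgfra* and *Pi16* of this list helped to form the class and were left out of its calls. With them, the summed list in the class was at 30310 CPM uninjured and 22852 CPM injured. *Fmod* was at 1118 and 1026 CPM uninjured and 14.3 and 12.5 CPM injured (−6.12), and was counted in 15 of the 25 uninjured cells. *Clec3b* (tetranectin), a plasminogen-binding protein, fell from 1304 and 631 CPM to 12 and 7.75 CPM (−6.09), and *Crispld2*, a secreted glycoprotein counted in all 25 uninjured cells, from 2629.6 and 1774 CPM to 48.6 and 66.2 CPM (−5.36). *Gjb2* (connexin 26), a gap junction gene of meningeal and perivascular fibroblasts, fell from 648 and 347 CPM to 10.5 and 6.56 CPM (−5.33), and *Edn3* (endothelin 3) from 878 and 796 CPM to 8.79 and 35.2 CPM (−6.20). *Sult1a1*, a phenol sulfotransferase, fell from 192 and 246 CPM to 0.388 and 0 CPM (−7.38). In *Fmod*, *Clec3b*, *Crispld2* and *Gjb2* the highest injured cells still reached 538, 645, 2448 and 412 CPM.

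**Figure D5:**
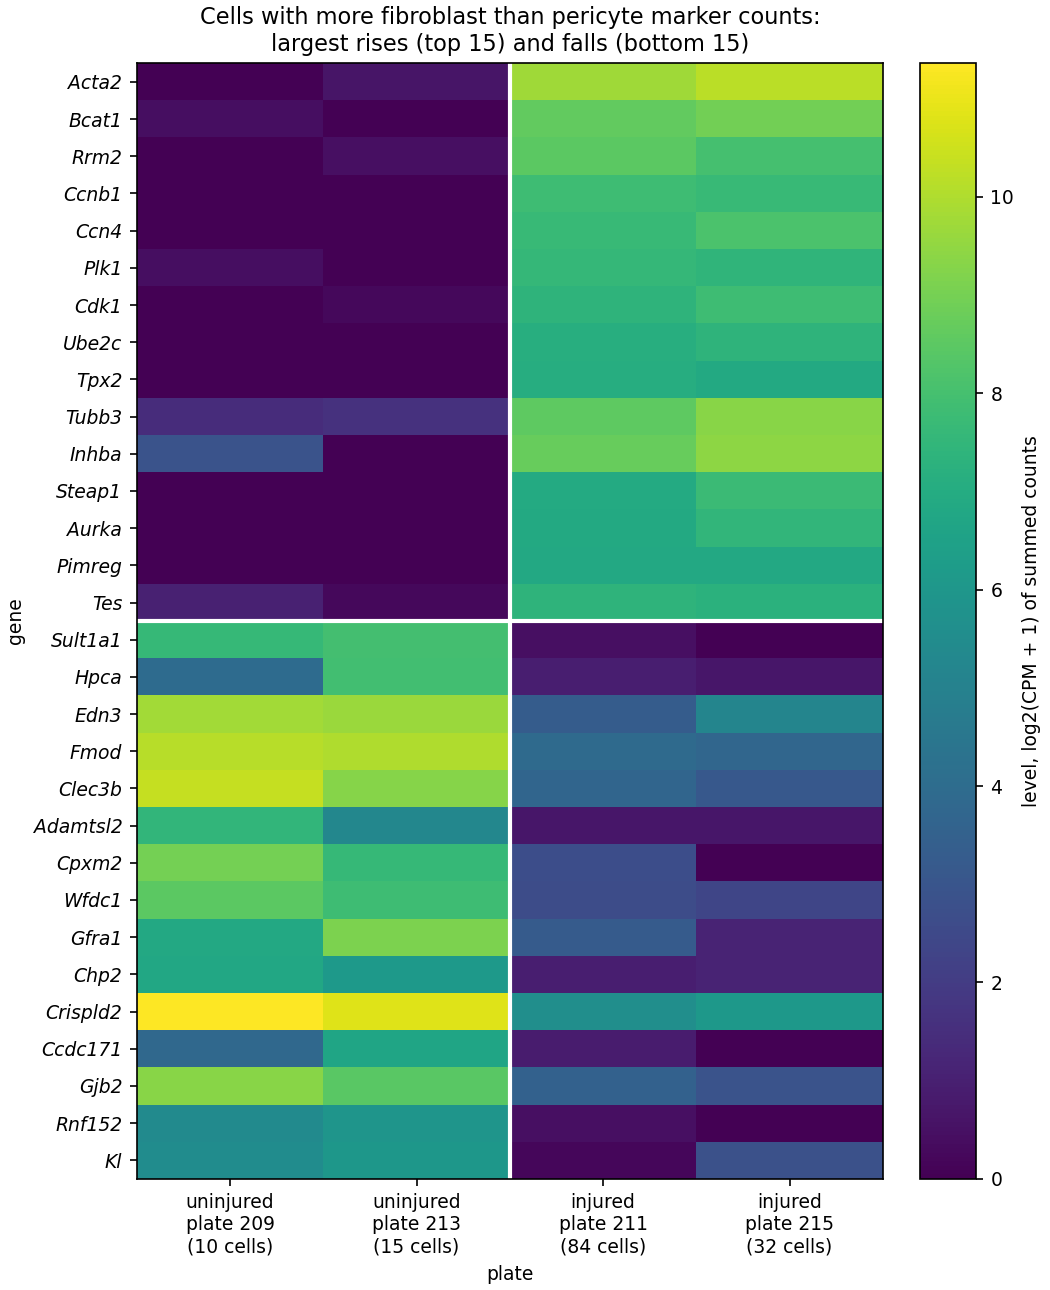
Heat map of log2(CPM + 1) for the 15 largest rises and the 15 largest falls among GLAST-lineage cells with more fibroblast than pericyte marker counts (rows), on plates 209 (10 cells), 213 (15 cells), 211 (84 cells) and 215 (32 cells). Acta2, Bcat1 and cell cycle genes lie at or near 0 on both uninjured plates, and Fmod, Clec3b and Crispld2 are lower on both injured plates, as the rule for calls required.

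Secreted signals in the class were mixed. Chemokine and cytokine genes had 8 rises and 4 falls among 19 (median 1.40). *Ccl2* rose from 79.7 and 20.4 CPM to 993 and 1513 CPM (4.60) and *Il11* from 1.73 and 0.189 CPM to 116.8 and 137.7 CPM (6.10), whereas *Il33*, at 1307 and 897 against 1617 and 2127 CPM (0.66), was not called. *Cxcl16*, a transmembrane chemokine, fell from 763 and 752 CPM to 32.5 and 43.5 CPM (−4.47), with a count in all 25 uninjured cells. *Igf2* fell from 1149 and 451 CPM to 25.6 and 135.3 CPM (−4.42). Only 8 Notch genes could be tested in the class, and none was called (median −0.74). Of 16 barrier transporter genes tested in the class, by contrast, none rose and 9 fell (median −2.11). Proteases and inhibitors had 8 rises and 4 falls among 29, with a median of −0.27, against 1.19 in all cells.

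Several genes moved in opposite directions in all cells and in the fibroblast-marker class. *Tfrc*, the transferrin receptor, was at 118.5 and 108.7 CPM in all uninjured cells and 32.8 and 34 CPM in all injured cells (−1.75), but at 1.04 and 0.377 CPM against 32.6 and 34 CPM in the class (4.39). *Lef1*, a transcription factor of the Wnt pathway, fell from 86.1 and 98.8 CPM to 13 and 14.3 CPM in all cells (−2.75) and rose from 1.04 and 1.13 CPM to 12.3 and 14.3 CPM in the class (2.67). The injured values hardly differed between the comparisons, and the uninjured values did.

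The tdTomato− EGFP+ cells of the same plates, 46 and 60 uninjured cells and 58 and 45 injured cells that GLAST-CreERT2 had not labelled, give the side-by-side values. There 585 of 10982 tested genes rose (5.33%) and 899 fell (8.19%), around a median of −0.19. All 34 mitosis genes also rose in them (median 4.36). Fibrillar matrix genes had 13 rises and no fall among 25 (median 1.95), proteases and inhibitors 16 rises and 1 fall among 30 (1.65), barrier transporters 1 rise and 9 falls among 17 (−1.38) and endothelial genes 8 falls among 13 (−1.28). Of the 928 genes called higher in tdTomato+ cells, 378 were also called higher in tdTomato− cells (40.7%, or 64.6% of the 585), and of the 2439 called lower, 655 were also called lower (26.9%, or 72.9% of the 899). *Tnc* rose from 1.04 and 0.11 CPM to 516 and 636.9 CPM there (8.69), *Ccl2* from 6.25 and 1.31 CPM to 541 and 366.9 CPM (6.85) and *Timp1* from 7.29 and 4.33 CPM to 388 and 407.2 CPM (5.99); these genes were chosen after their values were seen. Cells with more fibroblast marker counts made up 11.3% of uninjured and 33.98% of injured tdTomato− cells. *Rgs5* was at 3871 and 3639 CPM uninjured and 4370 and 1903 CPM injured (−0.27) and *Kcnj8* at 1668 and 1703 against 1922 and 953.2 CPM (−0.26), neither called. *Inhba* was at 21.6 and 4.33 CPM against 37.4 and 39.8 CPM (1.86), *Has1* at 46.2 and 16.6 CPM against 26.6 and 22.8 CPM (−0.08) and *Aldh1a3* at 0 and 26.1 CPM against 17.6 and 26.9 CPM (0.33), none of them called. The differences between the 2 sorts were not tested, since each group of cells is 1 sample.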

How the data were processed

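Smart-seq3 libraries of single sorted cells were counted by the authors, who deposited integer counts of each gene in each cell as a single table; their processing notes name mm10 as the genome build. Which aligner and annotation were used, and whether reads or molecules were counted, is not given in the sources used here. Columns were matched to the labels for 503 cells, and 1465 other columns were not used. Of 56701 gene rows, the 20521 symbols kept had counts both on plate 211 and on another plate; 14412 symbols without this amounted to 3.55% of the counts and were left out, as were 92 rows of spike-in RNA.

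Counts of the kept cells were summed per group and plate and scaled to CPM. Genes at 10 CPM or more in either group were compared with a pseudocount of 1, and no test was run, since each group is 1 sample. Called genes passed a log2 difference of 1 in the sums and in all 4 plate pairs. Leading genes were the 15 called genes per direction that changed most and whose higher group reached 50 CPM and had the gene in at least 20% of its cells; the other genes named belong to 45 gene lists. Some genes that entered the lists and counts are not reported here. The members and lists were chosen with earlier results of these data known. The steps were tested on simulated data. Alternatives used TMM in edgeR 4.0.16 and size factors of DESeq2 1.42.0 (R 4.3.3); the rest was done in Python 3.11.15 with numpy 2.4.6, pandas 2.3.3, scipy 1.17.1 and matplotlib 3.10.9. Thinning used 20000 counts per cell. No doublet caller was run on cells sorted singly into wells. Promoter windows came from RefSeq on GRCm38.p6.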

Additional observations from a re-analysis of the deposited data

Results flagged for a closer look

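The 5 genes that follow moved in opposite directions in the GLAST-lineage (tdTomato+) and the tdTomato− cells in every plate pair; the difference between the sorts was not tested. *Eln*, elastin, differed by −1.67 in tdTomato+ and 3.09 in tdTomato− cells. In tdTomato+ cells *Eln* was low, at 18.1 and 28.1 CPM uninjured against 7.03 and 3.58 CPM injured. There 1 cell held 47.7% of its uninjured counts, and it was not called under TMM scaling. Its injured tdTomato− plates 211 and 215 stood apart, at 419 and 71.8 CPM. *Ednrb*, an endothelin receptor gene, differed by −2.82 and 4.39. *Trpc6*, a cation channel gene, differed by −1.99 and 2.92. *Natd1* differed by −1.54 and 2.17, and *C1qtnf3*, a secreted C1q/TNF-related protein gene, by −1.94 and 3.33.

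Spike-in RNA, which no comparison used, made up 0.0752% of the counts of GLAST-lineage cells on plate 211 and had no count on the other plates.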

How the results depend on the processing

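With 1 sample per group, the alternatives show how far the calls depend on scaling, filters and cells. Against 928 higher and 2439 lower calls among 10907 genes tested, DESeq2 size factors gave 1429 and 1536 among 10780. A filter at 50 CPM tested only 5569 genes and gave 598 and 1355. A log2 difference of 2 gave 348 and 1023 among 10907. Without plate 211 the higher calls numbered 1472, and leaving out each plate in turn gave 1089 to 1472 higher and 2970 to 3190 lower calls. With a plate left out, fewer plate pairs had to agree for a call. Cells with more fibroblast than pericyte marker counts gave 1453 lower calls among 10557 genes tested. Cells with the endothelial list under 1000 CPM gave 1484 among 10623. Both choices of cells were made after seeing the data. All other counts were within 1.5 times 928 and 2439. Of the list medians recomputed, 430 moved by less than the SD over plate pairs, 251 by more and 5 reversed; of the differences of named genes, 1770, 725 and 32 did.

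The mean of the cells reversed *Acta2* (−1.25) and *Ephb3* (−0.67). In cells with more fibroblast than pericyte marker counts the medians of the smooth muscle contractile list (0.94) and of proteases and inhibitors (−0.27) changed sign. The contractile median was there over 8 genes, against 14 in all cells. So did the differences of *Aspn* (1.67), *Flt1* (1.16), *Gucy1a1* (1.66), *Hey2* (0.61), *Itga4* (0.88), *Itga7* (1.86), *Lama5* (0.39), *Lef1* (2.67), *Nodal* (1.04), *Pdgfb* (1.24), *Pdgfd* (0.71), *Rgs4* (3.49), *Robo1* (−0.10), *S1pr2* (−0.021), *Slc16a1* (0.71), *Slc2a1* (0.40), *Stard4* (0.58) and *Tfrc* (4.39). In cells with the endothelial list under 1000 CPM the contractile (0.27), protease (−0.22) and prostaglandin (−0.077) medians did, with *Flt1* (1.09), *Itga4* (0.24), *Itga7* (0.96), *Lef1* (2.71), *Nodal* (0.31), *Pdgfb* (1.29), *Pdgfd* (1.59), *S1pr2* (−0.011), *Slc16a1* (0.77), *Slc2a1* (0.093), *Stard4* (1.25) and *Tfrc* (4.38). Each difference is listed whether or not the gene reached 10 CPM in the cells chosen. *Aspn* was at 0.122 CPM uninjured and 2.57 CPM injured in the fibroblast-marker cells, too low to be tested, so its change of sign is not a call. The cause was not tested in any of these. The upper limit of 1200 genes per cell was not run, since it leaves no cell on plate 211. No paired analysis was possible because the result comes from no test and the cell numbers pair nothing. Plate 215 was shallow, so a gene absent there was not detectable at this depth below 1.79 CPM.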
